A study of Lilium davidii var. unicolor with 6 samples.

Results

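The transcripts described here are those of lily bulb scales that were at least about 2 times higher in methane-rich water (MRW) than in distilled water, with no overlap between the libraries of the groups. No upper limit was set on their level. A transcript was taken when its mean level over the 3 MRW libraries was at least 1 CPM (counts per 1000000 counts of the library), when (mean MRW CPM + 0.1)/(mean control CPM + 0.1), called the ratio from here on, was at least 2, and when its lowest MRW value lay above its highest control value. Of the 14140 transcripts in the table, 104 met this rule, which is 0.736% of all and 0.798% of the 13027 with a mean of at least 1 CPM in MRW. With the control and MRW groups exchanged, the same rule took 863 transcripts. Because the rule used the control and MRW values themselves, those values are a description of the 104 and no test of them.

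The plant was the Lanzhou lily, Lilium davidii var. unicolor, and the tissue was detached bulb scales. Control scales (n = 3) were soaked for 3 h in distilled water and irrigated with it every 3 days. MRW scales (n = 3) were soaked and irrigated in the same way with 100% MRW, which is water charged with methane gas. Per the labels, all scales were kept in the dark on a moist perlite and vermiculite bed and sampled on day 10, and each biological replicate had 40 scales. A library therefore averages many scales, and fewer cells holding a transcript cannot be told apart from less of it per cell.

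A lily scale is a fleshy storage leaf. Once detached, it can form new meristems at its base, which grow into bulblets fed by the starch of the scale, and growers use this to multiply lilies. Methane given as MRW is studied as a regulator of rooting and of stress responses in plants. The rows of the table are full-length sequences read on a long-read sequencer, and short reads were counted on them. A lily gene can be represented by several such sequences, such as splice forms, the copies from each parent or close gene copies. A counting program can divide a short read that matches several of them, and this leaves decimals in the counts. The program used here is not named, so decimals are taken as a sign of divided reads without proof. The sequences are given by identifier and length with no gene names, so functions are not described, the tissue could not be set against marker genes, and transcripts are called here by their length in bases.

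The libraries held 20988773 to 28031469 estimated counts (exact two-sided permutation test between groups, p = 0.8, smallest possible 0.1). Values of a group are given in the order of its replicates 1 to 3. Together the 104 transcripts took 0.0917%, 0.0900% and 0.0947% of all counts in the control libraries, and 0.231%, 0.243% and 0.244% in the MRW libraries. Their mean MRW level had a median of 9.17 CPM and ran from 1.17 to 219 CPM, against a median of 21.2 CPM over the 13027 transcripts. In control scales the median of the 104 was 2.91 CPM, against 21.3 CPM. Per length, the median level in MRW was 5.43 FPKM (fragments per kilobase and per 1000000 counts), against 17.9 FPKM. Most of the 104 were thus below the typical transcript also in MRW, but 12 of them exceeded 50 CPM there and 6 exceeded 100 CPM, so the set is not wholly one of rare transcripts. The ratio had a median of 2.80. It was under 3 in 62 transcripts, 3 to under 4 in 20, 4 to under 10 in 13, and at least 10 in 9.

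**Figure D1:**
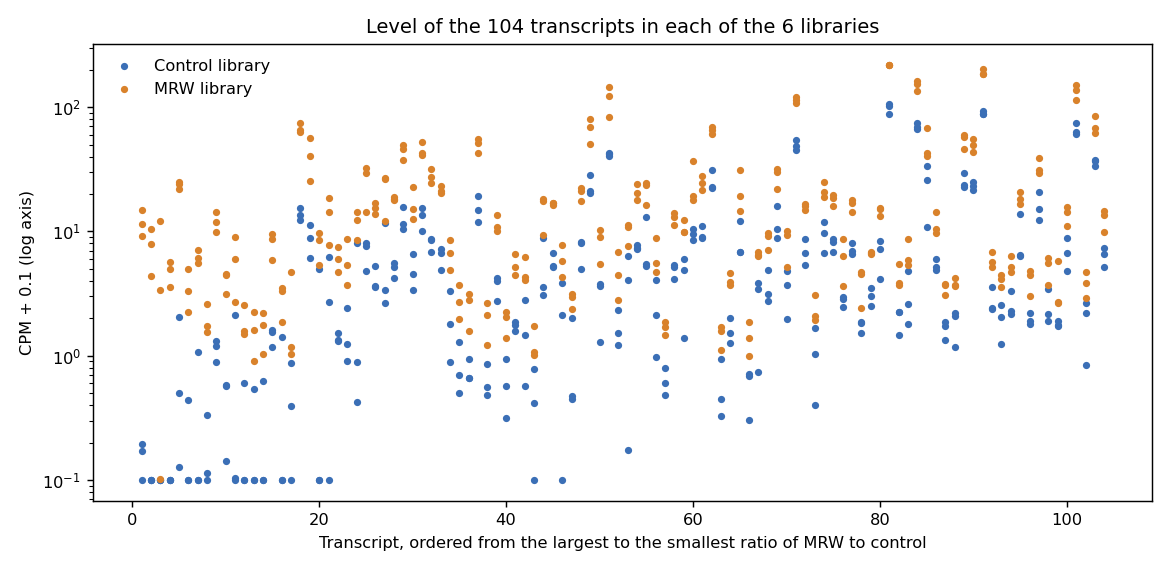
Level of each of the 104 transcripts in the 3 control libraries (blue) and the 3 MRW libraries (orange), as CPM + 0.1 on a log axis, with the transcripts ordered by their ratio. The 17 transcripts with 0 counts in some control library are concentrated at the left, and the transcripts above 100 CPM in MRW lie in the middle and at the right, where ratios are under 3.

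Across all transcripts, edgeR's quasi-likelihood test tested 103 of the 104, and 1 was removed by its filter on low counts. It called 70 of them higher in MRW (Benjamini-Hochberg adjusted p under 0.05), beside 5.63% of all 13331 transcripts tested, and 63 were called and at least 2-fold higher by its estimate, beside 0.488%. The rule and the test read the same values, so nothing follows from these counts. Fits without a library have fewer replicates, which alone can lower the number called. Over all transcripts that number, 750, changed with the library left out. Leaving out a control library changed it to 372, 1287 or 462, and leaving out an MRW library to 494, 322 or 392, in the order of the replicate left out. The rule itself took 178 transcripts without control replicate 2 and between 124 and 151 without any other library, since fewer libraries have to be separated. Of the 104, 73 met the rule with each library left out in turn. Leaving out a library cannot undo the separation of a transcript that met the rule, so only mean level and ratio were rechecked.

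The 104 fell into 4 classes by how their reads could be counted. In 18 transcripts the deposited counts were whole (within 0.005) in all 6 libraries, so no library shows reads divided with other sequences. In the other 86 at least 1 library had decimals. Over the 13027 transcripts 52.7% had whole counts throughout, against 17.3% of the 104 (exact binomial interval 10.6% to 26.0%). That interval treats the 104 as independent draws, although some of them appear to share reads with each other, and it is no test. The rule thus took 0.262% of transcripts with whole counts and 1.40% of those with decimals. Among transcripts over 2000 bases it took 0.138% of those with whole counts and 2.65% of those with decimals, and among transcripts up to 1000 bases 0.546% and 0.660%. Transcripts with decimals also varied more between replicates of a group. The median coefficient of variation (SD as a percentage of the mean, n = 3) over all transcripts of at least 1 CPM in MRW was 9.77% in control and 6.75% in MRW for whole counts, and 11.4% and 8.51% for counts with decimals.

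The 18 transcripts with whole counts form the part of the set with no sign of divided reads in its values. They were short, with a median length of 922 bases (range 254 to 3554), and only 3 of them were over 2000 bases. Their median ratio was 2.42, and 16 of the 18 had a ratio under 3.5. The test over all transcripts called all 18 of them, beside 5.63% of all transcripts tested, and nothing is read from this count because the rule used the same values. Of the 18, 12 met the rule with each library left out.

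The steepest difference among them was in a transcript of 988 bases. Only 0, 2 and 2 counts fell on it in the control libraries, against 369, 253 and 244 in the MRW libraries. Control scales thus gave 4 counts in all and MRW scales 866, a rate ratio of 210 (exact 95% interval for counting error alone 81.5 to 771). The transcript was picked on these same counts, and replicates varied by more than counting error. The interval thus leaves out part of the spread and is no test. The groups lay far apart, its lowest MRW library being 94.6 times its highest control library in CPM. In deposited FPKM it reached 16.0 ± 3.85 in MRW (SD, n = 3), close to the 17.9 FPKM of the median transcript.

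A transcript of 425 bases stood second. It had 0.788, 1.096 and 1.21 CPM in control and 9.71, 11.7 and 14.4 CPM in MRW. Its level was 1.03 ± 0.220 CPM in control and 11.9 ± 2.34 CPM in MRW (SD, n = 3), a ratio of 10.6, and its lowest MRW library was 8.004 times its highest control library. No other transcript with whole counts had a ratio of 4 or more. A transcript of 643 bases followed, at 6.20 ± 1.23 CPM in control and 21.5 ± 1.53 CPM in MRW (SD, n = 3), a ratio of 3.42.

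Next came transcripts of 1360, 1012, 451 and 254 bases, with ratios of 3.10, 2.82, 2.79 and 2.66. The transcript of 1012 bases was the highest in CPM of these, with 42.3, 41.9 and 40.5 CPM in control and 146, 123 and 82.7 CPM in MRW. Its control libraries were close together (SD 0.951 CPM, n = 3), while its MRW libraries spread widely (SD 32.3 CPM, n = 3), and all MRW values were above all control values. The highest CPM among the whole counts belonged to a transcript of 2842 bases, with 60.8, 74.8 and 63.4 CPM in control and 113, 138 and 151 CPM in MRW. At a ratio of 2.02 it was among the last to meet the rule.

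Per length, the highest level of all 104 transcripts was that of a short one with whole counts. This transcript of 354 bases had 238, 230 and 313 FPKM in control and 625, 627 and 694 FPKM in MRW. FPKM of such short sequences rests on a shortened length. Dividing CPM by FPKM gave an implied length of 101 bases for this transcript, 29.3 bases for one of 271 bases and 18.9 bases for the shortest one of 254 bases, and over 1000 bases the implied length was a median of 254 bases below the given one. The transcript of 254 bases thus stood at 83.0 ± 17.8 FPKM in MRW (SD, n = 3) on only 34, 39 and 43 counts. Levels per length are therefore uncertain for the 7 transcripts under 500 bases, while their ratios in CPM do not use length.

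**Figure D2:**
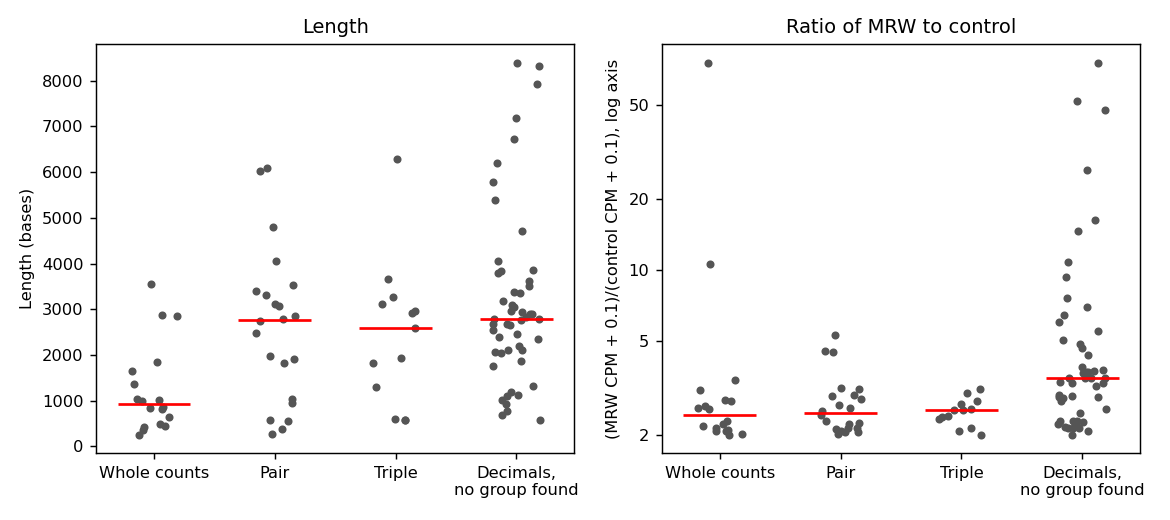
Length in bases (left) and ratio of MRW to control on a log axis (right) for the 104 transcripts by class: whole counts in all libraries (18), 1 of a pair (22), 1 of a triple (13), and decimals with no group found (51). Each point is a transcript and each red line a median. The transcripts with whole counts are short, with a median of 922 bases. The largest ratios are found mainly where no group was found, a class that includes transcripts not searched in full.

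Where reads of a sequence are divided with only 1 other sequence, the 2 counts carry decimals that add up to a whole number in every library. The whole table was searched for such pairs among the 6010 transcripts with decimals in at least 4 libraries, with all 6 sums required to be whole within 0.015. This found 3170 transcripts with exactly 1 partner, and 0 with more than 1. Of the 104, 22 belonged to such a pair (21.2%, against 23.9% of the 13027), and they made up 21 pairs, since in 1 pair both were among the 104. In these 21 pairs every sum was exactly whole. The partners were mostly near in length, the shorter being at least 90% of the longer in 16 pairs and under 50% in 3. Length was not used in the search.

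The totals of the pairs differed far less between MRW and control than the transcripts that met the rule. The 22 transcripts had ratios of 2.02 to 5.34 with a median of 2.49, and the 21 totals had ratios of 1.03 to 2.16 with a median of 1.28. The total met the rule in 1 pair, 17 of the 21 totals had a ratio under 1.5, and in 11 pairs the control and MRW totals overlapped. The transcript that met the rule was usually the minor one of its pair, with a median of 14.1% of the total in control and 28.4% in MRW. Of the 20 partners that did not meet the rule, 10 had a ratio below 1 and 10 a ratio of 1 or above (median 0.998, range 0.0908 to 1.62). Picking a transcript for its rise favours cases in which its share of a pair was high in MRW, so a smaller ratio of the total is partly built into the choice.

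The same choice in the other direction can be set beside this. Of the 863 transcripts taken with the groups exchanged, 142 lay in 87 pairs, and the total was at least 2 times higher in control in 71 of the 87 pairs (81.6%, median ratio 2.77). Among the pairs described here the total was at least 2 times higher in MRW in 1 of 21 (4.76%). In 55 of the 87 pairs both transcripts met the exchanged rule, against 1 of the 21 pairs here. These are counts of transcripts chosen on the same libraries, and the difference between the directions was not tested. The sets also differed from the start. The exchanged rule took 863 transcripts, with a median length of 1120 bases and 41.5% with whole counts. The rule itself took 104, with 2618 bases and 17.3%. The share of such totals over all pairs of the table is not given for either direction. The counts therefore do not show how much of the smaller ratio of the totals comes from the choice.

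In 3 pairs the transcript's ratio exceeded that of its total most. A transcript of 1967 bases was given 0, 0 and 37.17 counts in control and 85.18, 70.78 and 48.12 in MRW, a ratio of 5.34, while its partner of 1985 bases had 178, 266 and 242.83 in control and 237.82, 191.22 and 290.88 in MRW. Their totals of 178, 266 and 280 in control and 323, 262 and 339 in MRW gave a ratio of 1.22 in CPM, with overlapping groups. Here the partner held most counts in every library, and only the small share given to the first sequence separated the treatments.

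A transcript of 2749 bases was given 112.05, 0 and 0 counts in control and 211.14, 115.78 and 262.31 in MRW, a ratio of 4.55. With its partner of 2730 bases the totals were 891, 957 and 960 in control and 1274, 1104 and 1329 in MRW, and the ratio was 1.26 with no overlap. A transcript of 6082 bases, at a ratio of 4.50, went from 2.91 CPM in control to 13.4 CPM in MRW. With its partner of 6136 bases the total was 24.3 ± 3.42 CPM in control and 33.9 ± 2.26 CPM in MRW (SD, n = 3), a ratio of 1.40 without overlap. For both, the totals were higher in MRW by far less than the transcript that met the rule.

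**Figure D3:**
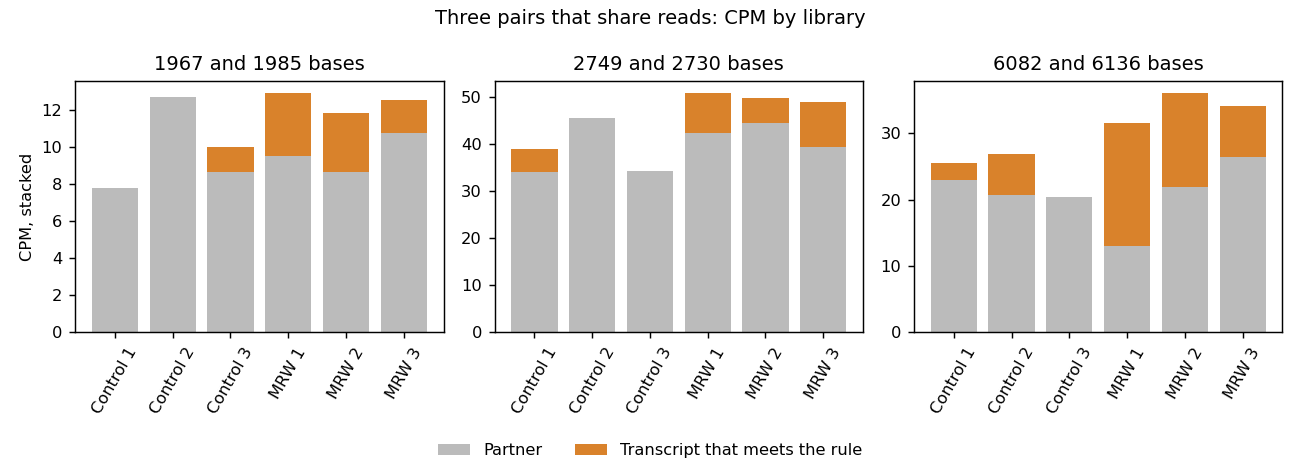
Level in CPM of the 3 pairs in which the transcript's own ratio exceeded that of its pair most, stacked by library, with the partner in grey and the transcript that met the rule in orange. The stacked totals had ratios of 1.22, 1.26 and 1.40, whereas the orange parts had ratios of 5.34, 4.55 and 4.50.

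In some other pairs, chosen here after their values were seen, the partner was far lower in MRW. Where the totals hardly differ, a rise in the transcript that was picked fixes a fall in its partner, so this is no separate result. Whether the sequences themselves or only the division of reads differed was not tested. A transcript of 1826 bases was given 135.02, 27.03 and 135.48 counts in control and 243.91, 215.67 and 332.93 in MRW. Its partner of 1768 bases had 96.98, 244.97 and 151.52 in control and 34.09, 44.33 and 0.07 in MRW, a ratio of 0.170. The totals overlapped, at 11.1 ± 1.60 CPM in control and 11.7 ± 0.597 CPM in MRW (SD, n = 3), while the longer sequence took 36.1% of it in control and 90.4% in MRW.

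The same was seen in a pair of 4062 and 4004 bases. The longer had 145, 131 and 387 counts in control and 458, 454 and 448 in MRW, and the shorter 182, 291 and 0 in control and 32.4, 0 and 11.2 in MRW. The longer took 54.7% of the total in control and 97.0% in MRW, and the total had a ratio of 1.18 with overlap. Control replicate 3 resembled the MRW libraries in this pair, since all of its reads were on the longer sequence.

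In 10 of the 21 pairs the total was higher in every MRW library than in every control library, beside 23.5% of the 13027 transcripts. The pairs with the largest ratios of totals are described here. The pair of 1903 and 585 bases, both among the 104, had totals of 93.6 ± 2.19 CPM in control and 202 ± 11.2 CPM in MRW (SD, n = 3), a ratio of 2.16. The pair of 960 and 973 bases had totals of 48, 47 and 43 counts in control and 105, 75 and 119 in MRW, a ratio of 1.99. Pairs of 271 and 423 bases and of 381 and 1766 bases, in which the shorter sequence met the rule and held under 3% of the total, had totals with ratios of 1.62 and 1.58 and no overlap. When the 2 transcripts of each pair in the table were summed and edgeR's test was run again over the 11767 resulting features, 7 of the 21 pairs were called higher in MRW (Benjamini-Hochberg adjusted p under 0.05), beside 7.18% of all features tested. On their own, 8 of the 22 transcripts had been called. The pairs were picked for a transcript that met the rule on the same values, so nothing follows from these counts.

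The same search for groups of 3 sequences, called triples here, with decimals in at least 5 libraries placed 13 more of the 104 in 12 triples. Their totals were whole within 0.01 in all libraries. The ratio was 2.00 to 3.12 for the 13 transcripts (median 2.54) and 1.07 to 2.46 for the 12 totals (median 1.27), of which 1 met the rule and 4 overlapped between groups. That 1 triple, of 583, 602 and 615 bases, held 2 of the 104, and its totals were 457, 378 and 767 counts in control and 1507, 1144 and 1334 in MRW. At 21.8 ± 4.93 CPM in control and 53.7 ± 5.75 CPM in MRW (SD, n = 3), all of its sequences were higher in MRW, with ratios of 2.71, 2.58 and 1.72. The transcripts of 582, 583, 585 and 602 bases among the 104 all lay in groups whose totals were at least 1.80 times higher in MRW.

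In pairs and triples together, 18 of the 33 totals were higher in every MRW library than in every control library, beside 23.5% of the 13027 transcripts. These totals contain transcripts chosen for such separation, so nothing is read from this count. The totals were steadier between replicates than the 35 transcripts in these groups that met the rule. The median coefficient of variation was 37.3% in control and 22.6% in MRW for those 35 transcripts, and 15.03% and 6.42% for the 33 totals. The other sequences of these groups are not in this comparison.

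**Figure D4:**
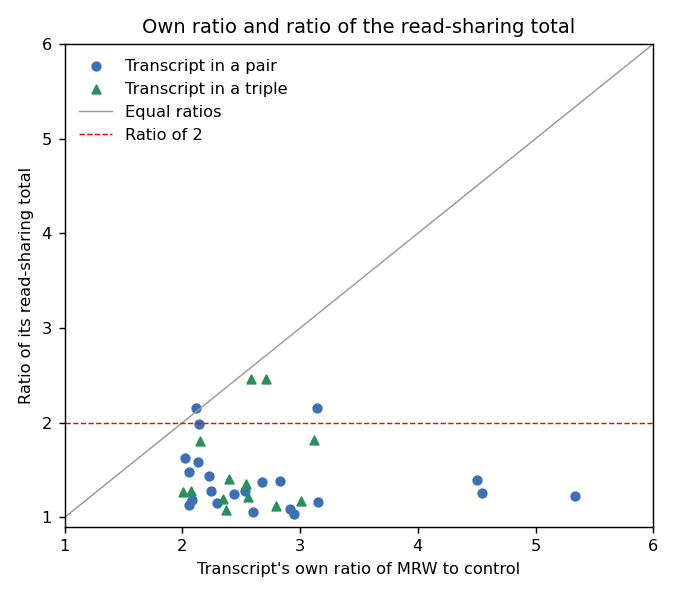
Ratio of MRW to control for each of the 35 transcripts in a pair (circles) or a triple (triangles), on the horizontal axis, against the ratio of the total of its group, on the vertical axis. All but 4 points, which belong to 1 pair and 1 triple, lie below the dashed line at a ratio of 2.

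For 51 transcripts with decimals no group of 2 or 3 was found. Larger groups were not searched. Of the 51, the 6 with decimals in at most 3 libraries were searched for neither pairs nor triples, and the 5 with decimals in exactly 4 libraries were searched for pairs only, so it is unknown how their reads were divided. A library without counts has no decimals, so transcripts absent from at least 2 control libraries were searched for pairs at most. Whether the large ratios in this class go with this limit of the search was not tested. This class held 17 of the 22 transcripts with a ratio of at least 4, and 43 of the 51 met the rule with each library left out. Larger ratios pass that recheck more easily, and the median ratio was 3.49 in this class against 2.42 for whole counts. Its members were long, with a median of 2797 bases, and 40 of the 51 were over 2000 bases.

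The 3 transcripts with 0 counts in every control library belong to this class. The transcript of 1319 bases reached 258.03, 94.96 and 212.71 counts in MRW, and that of 2797 bases reached 123.44, 124.45 and 94.37. With 3 counts put in place of 0 in every control library, they were 58.9-fold and 36.8-fold higher in MRW. These are no lower bounds, since the floor covers counting error only. Their counts had decimals and no partner was searched, so reads of the control libraries may have been given to other sequences, which was not tested. The transcript of 2963 bases had 81.82, 0.06 and 328.17 counts in MRW. Its MRW replicate 2 was in effect as empty as the controls, and it met the rule only because 0.06 is above 0. With the same floor it was 40.4-fold higher on average, a value that rests on MRW replicates 1 and 3.

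Absence from some control libraries was common among the steep cases. At least 1 control library had 0 counts for 17 of the 104, and 16 of these had counts with decimals. A transcript of 1865 bases was low in control but had counts in each library, at 0.401, 0.0281 and 1.96 CPM. In MRW it had 25.0, 22.02 and 24.05 CPM, a ratio of 26.6. Its MRW libraries were close to each other and its lowest was 11.3 times the highest control library. Less clear was a transcript of 2039 bases, with 0.0035, 0 and 2.03 CPM in control and 2.61, 8.94 and 5.93 CPM in MRW, where control replicate 3 came near MRW replicate 1.

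Some long transcripts of this class were well covered in both groups. A transcript of 3382 bases had 15.4, 12.3 and 13.6 CPM in control and 63.2, 65.3 and 73.9 CPM in MRW, a ratio of 4.87. A transcript of 7176 bases with 11 full-length reads had 8.70, 11.2 and 6.03 CPM in control and 25.3, 40.7 and 56.6 CPM in MRW, a ratio of 4.69. A transcript of 8328 bases had 15.7, 11.5 and 10.4 CPM in control and 37.2, 45.6 and 49.5 CPM in MRW, a ratio of 3.504. In all 3 the lowest MRW library was more than 2 times the highest control library (4.10, 2.27 and 2.37 times).

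Of the other 3 of the 5 longest transcripts, those of 8396 and 7918 bases were low, at 1.42 ± 0.791 and 0.654 ± 0.159 CPM in control and 5.82 ± 2.60 and 2.41 ± 0.812 CPM in MRW (SD, n = 3). The third, of 6718 bases, stood at 0.468 ± 0.228 and 1.31 ± 0.433 CPM. Their MRW libraries were all above their control libraries, as the rule required, with wide spread.

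The highest CPM of the whole set belonged to transcript_HQ_Ld3_vu_transcript14453/f10p0/1768, of 1769 bases, in the same class. It had 105, 87.9 and 103 CPM in control and 219, 219 and 217 CPM in MRW, or 98.7 ± 9.43 and 219 ± 1.01 CPM (SD, n = 3), a ratio of 2.21. The identifier's number after f gives its full-length reads, 10 in this case. The largest such number, 19, was that of transcript_HQ_Ld3_vu_transcript11238/f19p0/2102, of 2102 bases. It had 45.2, 54.1 and 48.7 CPM in control and 120, 113 and 107 CPM in MRW, a ratio of 2.30. Both were separated by about the same margin, their lowest MRW library being 2.06 and 1.98 times their highest control library.

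The 104 transcripts were longer than the typical transcript, with a median of 2618 bases against 1563 over the 13027. Over 2000 bases were 60.6% of them against 34.1%, and over 5000 bases 11 of them (10.6%) against 1.01%. The excess lay with the counts that had decimals, of which 60 of 86 transcripts (69.8%) were over 2000 bases, against 36.7% of the 6162 transcripts with decimals in general. With whole counts 3 of 18 were that long (16.7%), against 31.8% of 6865. Few full-length reads stood behind them, since 63 of the 104 (60.6%) had only 2, against 41.2%.

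Libraries also differed in how they represented long sequences. As medians of each transcript's log2 distance from its mean over the libraries, sequences above 2000 bases stood apart from those of 1000 bases or less by -0.21, 0.14 and -0.36 in the control libraries and by 0.15, 0.18 and 0.13 in the MRW libraries. With such a trend on length taken out of every library, 84 transcripts met the rule, 82 of them among the 104 (78.8% of the 104 and 97.6% of the 84). Their median length was 2128 bases, and 52.4% were over 2000 bases. Control replicate 2 resembled the MRW libraries in this measure. The highest control value of the 104 came from replicates 1, 2 and 3 in 38, 34 and 32 transcripts.

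**Figure D5:**
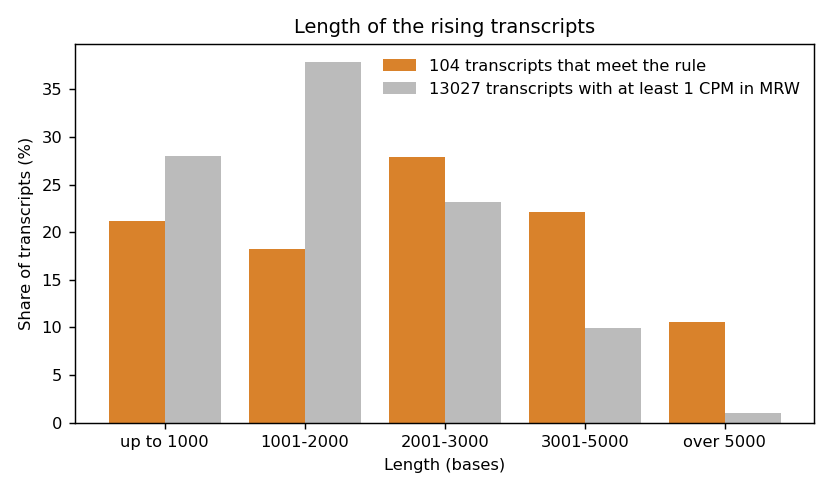
Share of transcripts in 5 classes of length in bases, for the 104 that met the rule (orange) and the 13027 with a mean of at least 1 CPM in MRW (grey), in percent of each set. The 104 exceed the grey bars in the 3 classes above 2000 bases, with 10.6% against 1.01% in the longest.

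The separation behind the rule was narrow for many of the 104. The lowest MRW library exceeded the highest control library by a median of 1.65 times. In 41 transcripts the margin was under 1.5 times and in 6 of these under 1.1 times, while it was at least 2 times in 26. The 6 narrowest included transcripts of 2950 bases (11.5 CPM in control replicate 3 against 11.9 CPM in MRW replicate 1) and 2347 bases (8.005 against 8.41 CPM in the same libraries). Replicates of the 104 varied more than usual, with a median coefficient of variation of 30.2% in control and 20.9% in MRW. For the 18 with whole counts it was 16.3% and 14.4%. Over all transcripts of at least 1 CPM in MRW it was 9.77% and 6.75% for whole counts, and 11.4% and 8.51% with decimals. The comparison was not matched for level, and the median level in control was 2.91 CPM for the 104 against 21.3 CPM. MRW replicate 3 held the highest MRW value in 45 of the 104, replicate 1 in 30 and replicate 2 in 29.

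The thresholds cut through a continuous range. Just inside the ratio of 2 were transcripts of 2956, 855 and 918 bases, with ratios of 2.003, 2.005 and 2.006. Just outside it were transcripts of 2922, 3188 and 1501 bases with 1.996, 1.993 and 1.992. At the lower limit of 1 CPM in MRW, transcripts of 2682, 6718 and 3672 bases lay just inside with 1.17, 1.31 and 1.37 CPM, and transcripts of 2362, 3352 and 868 bases just outside with 0.919, 0.906 and 0.825 CPM. A further 52 transcripts passed both limits but had control and MRW values that overlapped.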

How the data were processed

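The authors deposited a table with a length, 6 columns of estimated counts and 6 columns of FPKM for 14140 transcripts, per the file headers. The estimated counts are raw, with 56.0% to 57.8% of each column whole; FPKM as deposited is scaled to length and library. Subread is named, without a role, in the submitters' processing notes. The series' text names the soybean genome as alignment target although the rows are lily transcripts, and for the counting program, its settings and strand use nothing is given in the sources used here.

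CPM is the count times 1000000 over the column total. For edgeR 4.0.16 (R 4.3.3) counts were rounded, filtered with filterByExpr (minimum count 10, total 15), scaled by TMM and fitted with treatment as the only term; DESeq2 1.42.0 and limma 3.58.1 served as alternatives. Read-sharing groups were inferred from sums of the deposited counts, and both procedures were tested on simulated data. No sequences were at hand to check that the members of a group are alike. The members, lists and tests were chosen with earlier results of these data known, and the search for groups was added after the data were seen. The 2 identifiers printed were set by rule (highest mean MRW CPM, most full-length reads); other transcripts come from fixed lists (highest CPM, ratio, longest, shortest, 0 in control, threshold edges) or were chosen after their values were seen to illustrate a class. The chi-square between replicates of a group was 8.17 to 27.1 per degree of freedom, more than counting noise alone gives, and all were kept as separate replicates as labelled. The labels do not say whether replicates were extracted or sequenced together, so no batch could be examined. The interval of the rate ratio and the floors cover counting error only.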

Additional observations from a re-analysis of the deposited data

How the results depend on the processing

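Under the alternatives, the number of transcripts meeting the rule (104) was 494, 42 and 22 with a ratio threshold of 1.5, 3 and 4, which follows from the threshold, and 863 with control and MRW exchanged. Only 18 had whole counts throughout. With pairs and triples replaced by their totals it was 71, of which 69 were transcripts and 2 totals. TMM factors gave 86, upper quartile factors 124, FPKM in place of CPM 89, and pseudocounts of 0 to 1 gave 113 to 76. Leaving out a library gave 124 to 178, the latter without control replicate 2. The number of the 104 called by the test lay between 51 (without MRW replicate 3) and 84 (limma-voom), with 82 by DESeq2. Over all transcripts 750 were called higher, 2003 with upper quartile factors, 468 with the replicate block and 322 to 1287 with a library left out; the cause was not tested. The labels do not say that replicate numbers pair libraries, and the deviations of same-numbered libraries correlated at -0.0874 to -0.0220, so the block was not used; 0 of 6 libraries correlated best with their own number. With it 59 of the 104 were called. At a ratio of at least 4 the median length was 3030 bases and 9.09% had whole counts. The share of the 104 in MRW libraries was 0.239% of counts and 0.230% of summed FPKM. All other alternatives stayed within 1.5 times, or within the spread or interval, of the values given.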
